A study of Homo sapiens with 6 samples.

Results

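MHC class I molecules were examined at the RNA level through 6 genes: the classical heavy chains HLA-B and HLA-C, the non-classical heavy chains HLA-E, HLA-F and HLA-G, and the shared light chain B2M. The 6 genes were taken by name, from their gene entries on chromosome 6 and, for B2M, chromosome 15, out of 58174 genes in the expression table. Other class I heavy chain genes were not analysed here. The cells were SiHa, an established line of cervical squamous carcinoma cells, and poly(A) RNA of whole cultures was sequenced. The OV-BRCA1 group (n = 3) was transfected with the plasmid GV230 carrying BRCA1, a DNA repair gene and tumour suppressor. The NC group (n = 3) received the empty GV230 plasmid. Both groups were exposed to Lipofectamine 3000 and plasmid DNA, and RNA was taken 48 h later. All libraries came from 1 cell line, the overexpression was transient, and no untransfected culture is among the samples. The study's methods call the 3 samples of a group biological replicates, and the p-values below measure only the spread between these samples.

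A class I molecule is a heavy chain held by beta-2-microglobulin, the product of B2M, with a short peptide in its groove. Peptides are cut by the proteasome, moved into the endoplasmic reticulum by the TAP transporter and loaded there with the help of chaperones, and the finished molecule shows them to cytotoxic T cells and natural killer cells at the cell surface. Classical heavy chains vary greatly between people and present many peptides. HLA-E presents leader peptides of other class I chains to natural killer cell receptors, HLA-F can reach the surface without peptide, and HLA-G is known from the placenta. Transcription of classical class I genes and B2M is driven by a short promoter module in which interferon and NF-kB elements lie upstream of boxes bound by the factors that recruit the transactivator NLRC5.

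The promoters are shown so that the letters of this module can be compared between genes that rose and genes that did not. RefSeq sequence on GRCh38.p14 was found for 5 of the 6 genes and covers 250 bases before to 50 bases after the start, written 5′ to 3′ on the strand of the gene. Capitals mark the matches to the searched letters, which are the Y box CCAATCAG, the X2-like TGACG, the NF-kB motif, the interferon element ISRE (TTTC, any 2 bases, TTTC) and its shorter form TTTCNNTTC, each on both strands. The windows lie at chr6:31357130-31357429 for HLA-B and chr6:31272043-31272342 for HLA-C, both on the minus strand. On the plus strand they lie at chr6:29723184-29723483 for HLA-F, chr6:29827575-29827874 for HLA-G and chr15:44711267-44711566 for B2M.
HLA-B: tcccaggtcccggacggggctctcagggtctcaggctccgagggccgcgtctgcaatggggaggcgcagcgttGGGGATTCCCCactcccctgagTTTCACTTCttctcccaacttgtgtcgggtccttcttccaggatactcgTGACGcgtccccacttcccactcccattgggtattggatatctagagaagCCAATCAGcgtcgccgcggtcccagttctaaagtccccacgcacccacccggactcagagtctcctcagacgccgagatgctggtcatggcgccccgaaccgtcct
HLA-C: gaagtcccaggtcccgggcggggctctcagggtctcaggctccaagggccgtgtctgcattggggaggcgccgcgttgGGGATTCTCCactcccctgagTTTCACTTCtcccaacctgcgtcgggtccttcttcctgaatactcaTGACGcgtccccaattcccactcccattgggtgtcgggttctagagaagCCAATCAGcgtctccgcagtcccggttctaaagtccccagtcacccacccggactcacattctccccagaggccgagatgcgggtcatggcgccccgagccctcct
HLA-F: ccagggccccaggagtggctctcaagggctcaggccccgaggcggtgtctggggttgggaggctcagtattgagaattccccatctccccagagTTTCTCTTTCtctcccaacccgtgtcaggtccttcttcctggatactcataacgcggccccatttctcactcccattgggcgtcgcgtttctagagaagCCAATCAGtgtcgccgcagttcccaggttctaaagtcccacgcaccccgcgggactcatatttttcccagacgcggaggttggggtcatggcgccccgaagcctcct
HLA-G: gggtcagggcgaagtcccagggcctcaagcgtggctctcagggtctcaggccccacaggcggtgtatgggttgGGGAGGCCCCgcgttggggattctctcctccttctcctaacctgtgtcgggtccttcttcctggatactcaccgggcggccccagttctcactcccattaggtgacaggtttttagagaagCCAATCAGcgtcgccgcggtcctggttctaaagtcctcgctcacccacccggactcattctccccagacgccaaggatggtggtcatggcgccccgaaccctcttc
B2M: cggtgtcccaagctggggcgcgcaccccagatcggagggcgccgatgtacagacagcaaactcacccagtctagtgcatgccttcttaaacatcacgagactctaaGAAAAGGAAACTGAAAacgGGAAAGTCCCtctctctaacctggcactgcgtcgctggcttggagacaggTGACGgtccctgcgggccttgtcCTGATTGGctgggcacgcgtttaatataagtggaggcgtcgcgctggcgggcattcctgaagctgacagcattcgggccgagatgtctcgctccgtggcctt

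All 5 of these promoters held the Y box, at a first base of -57 to -52 from the start, against 3.97% of 35116 RefSeq promoters of the same length. The NF-kB motif was matched in HLA-B, HLA-C, HLA-G and B2M, against 11.3% of all promoters, and its 2 matches in HLA-B overlap each other. The X2-like letters were matched in HLA-B, HLA-C and B2M, against 24.6% of all promoters. The full interferon element was matched in HLA-F and B2M, against 3.57%, with 2 overlapping matches in B2M. The shorter form, which the full one does not contain, was matched in HLA-B and HLA-C, against 7.66% of all promoters. The HLA-G window shown had neither form, and the other 2 HLA-G windows in the table held no match to any of these letters. A match describes the letters only and marks no bound site. HLA-E was not in the promoter table.

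Levels are FPKM, sequenced fragments scaled to transcript length and library size, summed over the transcripts of a gene, so they are per length and can be set side by side between genes. A difference is the log2 ratio of OV-BRCA1 over NC on the scale of log2(FPKM + 1), from limma fitted across the 16321 genes that reached 0.5 FPKM in 3 or more samples, with Benjamini-Hochberg adjustment. A gene is said to have risen or fallen where the adjusted p was under 0.05, and to have met the screening criterion where the difference was also above 1 in size. All 6 genes passed the filter on low values, HLA-G only through 2 OV-BRCA1 samples and 1 NC sample. HLA-B, HLA-E and HLA-F rose, none of the 6 fell, and HLA-C, HLA-G and B2M did not pass the test. Among all genes tested, 16.4% rose and 18.9% fell. The same 3 genes met the screening criterion, which 2.89% of all genes met in the higher and 1.1% in the lower direction. In these 3 genes every OV-BRCA1 sample was above every NC sample, as in 23.4% of all genes. The median difference of the 6 genes was 1.02, beside -0.04 over all genes tested. In bulk RNA, more cells expressing a gene and more RNA per cell cannot be told apart.

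Across the series, BRCA1 itself was 34.9 to 40.8 FPKM in the OV-BRCA1 group and 14.9 to 21.7 FPKM in the NC group, a difference of 0.95 ± 0.14 (SE, limma adjusted p = 0.00373). Depth, estimated from the step size of low FPKM values, was 14.2 to 16.7 M fragments in the OV-BRCA1 libraries and 16.2 to 20.2 M in the NC libraries. Correlations of log2(FPKM + 1) over genes were 0.985 to 0.986 within groups and 0.951 to 0.955 between them. Of 9 epithelial markers, 5 (KRT7, KRT8, KRT17, KRT18 and EPCAM) had a mean of at least 1 FPKM, while KRT5 and TP63, which mark squamous epithelium, stayed below 0.37 FPKM in all 6 libraries. The leukocyte markers PTPRC, CD3D and MS4A1 were at 0 in all 6 libraries. The summed leukocyte list was 6.94 to 9.35 FPKM in the OV-BRCA1 group and 18.5 to 21.2 FPKM in the NC group, and CD14 was its only gene with a mean of at least 1. Mitochondrial genes took 14.8% to 17.2% of all FPKM in the OV-BRCA1 libraries and 21.0% to 23.2% in the NC libraries. Scaled to nuclear protein-coding genes instead, HLA-B, HLA-E and HLA-F differed by 2.22, 1.41 and 1.57.

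HLA-B (ENSG00000234745, chr6:31269491-31357188 on the minus strand of GRCh38), a classical heavy chain, was the most abundant of the 6 genes in the OV-BRCA1 group. Its level was 1161, 1061 and 1092 FPKM in the OV-BRCA1 samples and 236, 226 and 228 FPKM in the NC samples. Every OV-BRCA1 sample was far above every NC sample, and samples of a group lay close together. The means were 1105 ± 51.1 and 230.3 ± 5.42 FPKM (SD, n = 3 each), a ratio of 4.80. The log2 difference was 2.26 ± 0.05 (SE, 95% interval 2.14 to 2.37, limma adjusted p = 2.77e-06). At the estimated depths these levels correspond to 19187 to 22902 fragments in the OV-BRCA1 libraries and 4685 to 5688 in the NC libraries.

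The rise was carried by many of the HLA-B transcripts. Of 7 transcripts with a group mean of at least 1 FPKM, 6 were higher in every OV-BRCA1 sample than in every NC sample and 1 overlapped, with ratios from 1.76 to 8.50. Among all transcripts at that level, 14% were higher in every OV-BRCA1 sample. The main protein-coding transcript, HLA-B-249, was at 752, 699 and 663 FPKM in the OV-BRCA1 samples and at 145, 150 and 144 FPKM in the NC samples. Its own difference, fitted among 50925 transcripts, was 2.26 (limma adjusted p = 1.44e-04), the same size as that of the gene. Of those transcripts, 2.85% rose. HLA-B-254, annotated as a retained intron, had the largest ratio, with 192, 183 and 226 FPKM against 33.9, 9.71 and 27.2 FPKM. Of the 100-base windows of HLA-B-249, 12.2% are also found in the pseudogene AL671883.2, which overlaps HLA-B on the opposite strand, and strand use in the counting is not given in the sources used here.

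**Figure D1:**
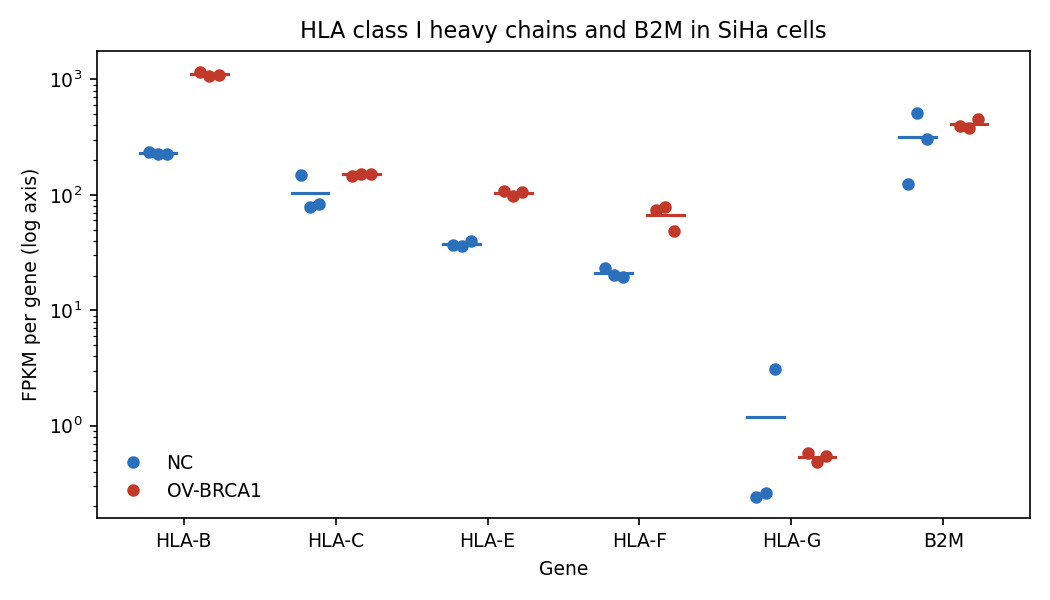
FPKM summed per gene (log axis) of each of the 6 genes (x axis), with a point for each OV-BRCA1 (red) and NC (blue) sample and a line at the group mean. HLA-B, HLA-E and HLA-F are separated between groups, HLA-C and B2M overlap through NC samples at 150 FPKM and 517 FPKM, and HLA-G lies below 1 FPKM except in 1 NC sample at 3.10 FPKM.

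HLA-C (ENSG00000204525, chr6:31268749-31272130, minus strand) is the other classical heavy chain studied and also a ligand of killer cell receptors. Its level was 147, 152 and 152 FPKM in the OV-BRCA1 samples and 150, 78.1 and 83.8 FPKM in the NC samples. NC replicate 1 lay within the OV-BRCA1 range and the other two NC samples well below it. The means were 150.3 ± 3.18 and 103.9 ± 39.8 FPKM (SD, n = 3 each). The log2 difference of 0.59 ± 0.24 (SE, 95% interval 0.02 to 1.17) missed the threshold, with a limma adjusted p of 0.10. Without NC replicate 1 it was 0.89 and passed, with a limma adjusted p of 6.77e-04.

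The most abundant transcripts of HLA-C differed in direction, and neither passed its own test. HLA-C-203, the main protein-coding transcript, was at 58.6, 73.7 and 72.1 FPKM in the OV-BRCA1 samples and at 47.7, 11.9 and 10.7 FPKM in the NC samples. Its groups did not overlap, yet its own difference of 1.82 missed the threshold among transcripts (limma adjusted p = 0.140). HLA-C-209, annotated as a retained intron, was at 25.4, 0 and 4.05 FPKM in the OV-BRCA1 samples and at 52.6, 50.4 and 53.6 FPKM in the NC samples. It was lower in every OV-BRCA1 sample, with a ratio of 0.188 and a transcript difference of -3.38 (limma adjusted p = 0.166). Only 71 of its 974 windows of 100 bases, 7.29%, occur in no other HLA-C transcript. The 1 HLA-C transcript that passed was the scarce protein-coding HLA-C-210, at 1.64, 2.16 and 1.24 FPKM against 0.208, 0.0966 and 0.551 FPKM, a difference of 1.06 (limma adjusted p = 0.0450). Summed over protein-coding transcripts alone, HLA-C was at 73.3, 75.9 and 91.3 FPKM against 48.0, 12.0 and 11.2 FPKM. On that sum the difference was 2.03 ± 0.56 (SE) and passed the test (limma adjusted p = 0.0417).

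HLA-E (ENSG00000204592, chr6:30489467-30494205, plus strand), the ligand of the inhibitory receptor pair CD94/NKG2A, rose. Its level was 107, 98.3 and 107 FPKM in the OV-BRCA1 samples and 36.9, 36.1 and 39.5 FPKM in the NC samples. The lowest OV-BRCA1 sample was well above the highest NC sample. The means were 104.1 ± 5.04 and 37.5 ± 1.77 FPKM (SD, n = 3 each), a ratio of 2.78. The log2 difference was 1.45 ± 0.06 (SE, 95% interval 1.31 to 1.59, limma adjusted p = 2.19e-05). Nearly all of it came from 1 protein-coding transcript, HLA-E-201, at 105, 94.4 and 100.2 FPKM against 35.1, 34.5 and 38.1 FPKM. Of its 100-base windows, 0.600% are shared with another gene, HLA-G.

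HLA-F (ENSG00000204642, chr6:29722775-29738528, plus strand), whose product can reach the surface in an open form, rose as well. Its level was 74.2, 79.1 and 48.2 FPKM in the OV-BRCA1 samples and 23.2, 20.2 and 19.3 FPKM in the NC samples. The groups were separate, and OV-BRCA1 replicate 3 lay below the other two samples of its group. The means were 67.2 ± 16.6 and 20.9 ± 2.03 FPKM (SD, n = 3 each), a ratio of 3.21. The log2 difference was 1.61 ± 0.19 (SE, 95% interval 1.15 to 2.07, limma adjusted p = 0.00147). The low sample was low through HLA-F-227, a non-coding processed transcript, which was at 33.2, 37.3 and 3.21 FPKM in the OV-BRCA1 samples and at 9.09, 9.01 and 0.885 FPKM in the NC samples. HLA-F-227 was also the most abundant HLA-F transcript, and its own difference of 1.62 did not pass the test (limma adjusted p = 0.462). Summed over protein-coding transcripts, HLA-F was 31.6 ± 2.49 FPKM against 9.99 ± 1.05 FPKM (SD, n = 3 each), a difference of 1.57 ± 0.10 (SE, limma adjusted p = 2.75e-04). Of 14 transcripts with a group mean of at least 1 FPKM, 7 were higher in every OV-BRCA1 sample and 7 overlapped. Over all transcripts at that level, 14% were higher in every OV-BRCA1 sample. In HLA-F-216, a protein-coding transcript, 31.8% of windows are shared with AL645939.1, HLA-F-AS1 or RPL23AP1, which overlap HLA-F on the opposite strand. HLA-F-AS1 itself was 5.81 ± 1.41 FPKM against 6.20 ± 1.03 FPKM (SD, n = 3 each) and did not pass the test.

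HLA-G (ENSG00000204632, chr6:29826967-29831125, plus strand), the heavy chain of the placental trophoblast, was near the lower limit of these libraries. Its level was 0.579, 0.483 and 0.544 FPKM in the OV-BRCA1 samples and 0.243, 0.261 and 3.10 FPKM in the NC samples. The OV-BRCA1 samples lay above NC replicates 1 and 2 and below NC replicate 3. The log2 difference was -0.28 ± 0.46 (SE, 95% interval -1.39 to 0.84, limma adjusted p = 0.676). Of 7 transcripts, 5 were at 0 in all 6 libraries. The other two, the protein-coding HLA-G-204 and HLA-G-207, annotated for nonsense-mediated decay, both peaked in NC replicate 3, at 1.39 and 1.72 FPKM. At the estimated depths HLA-G had 10.7 to 12.6 fragments in the OV-BRCA1 libraries, 5.52 and 7.13 in NC replicates 1 and 2, and 82.4 in NC replicate 3. Of the windows of HLA-G-204, 13.6% are shared with HCG4P8 or HLA-E, so a level this low is uncertain.

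B2M (ENSG00000166710, chr15:44711487-44718877, plus strand), the light chain that every class I heavy chain needs, did not pass the test as a gene. Its level was 393, 377 and 455 FPKM in the OV-BRCA1 samples and 124, 517 and 303 FPKM in the NC samples. The NC samples spread over a wider range than the OV-BRCA1 samples and enclosed them. The means were 408 ± 41.1 and 315 ± 197 FPKM (SD, n = 3 each). The log2 difference was 0.60 ± 0.48 (SE, 95% interval -0.57 to 1.76, limma adjusted p = 0.380). It ranged from 0.04 without NC replicate 1 to 1.07 without NC replicate 2, and passed in neither case.

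Most of the spread of B2M among the NC samples lay in 1 transcript. B2M-201, annotated for nonsense-mediated decay, was at 37.2, 29.4 and 78.8 FPKM in the OV-BRCA1 samples and at 21.6, 372 and 212 FPKM in the NC samples. It was high in NC replicates 2 and 3 and low in NC replicate 1. Of its 633 windows of 100 bases, 82 (13.0%) occur in no other B2M transcript. The protein-coding B2M-204 was at 93.4, 82.4 and 69.4 FPKM against 27.5, 23.4 and 18.1 FPKM, and rose by 1.79 (limma adjusted p = 0.00725). B2M-211, which is also annotated for nonsense-mediated decay, was at 194, 165 and 204.1 FPKM against 46.5, 81.1 and 52.2 FPKM, and rose by 1.67 (limma adjusted p = 0.0161). Of 11 B2M transcripts with a group mean of at least 1 FPKM, 6 were higher in every OV-BRCA1 sample and 5 overlapped. The share of all transcripts at that level that were higher in every OV-BRCA1 sample was 14%.

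**Figure D2:**
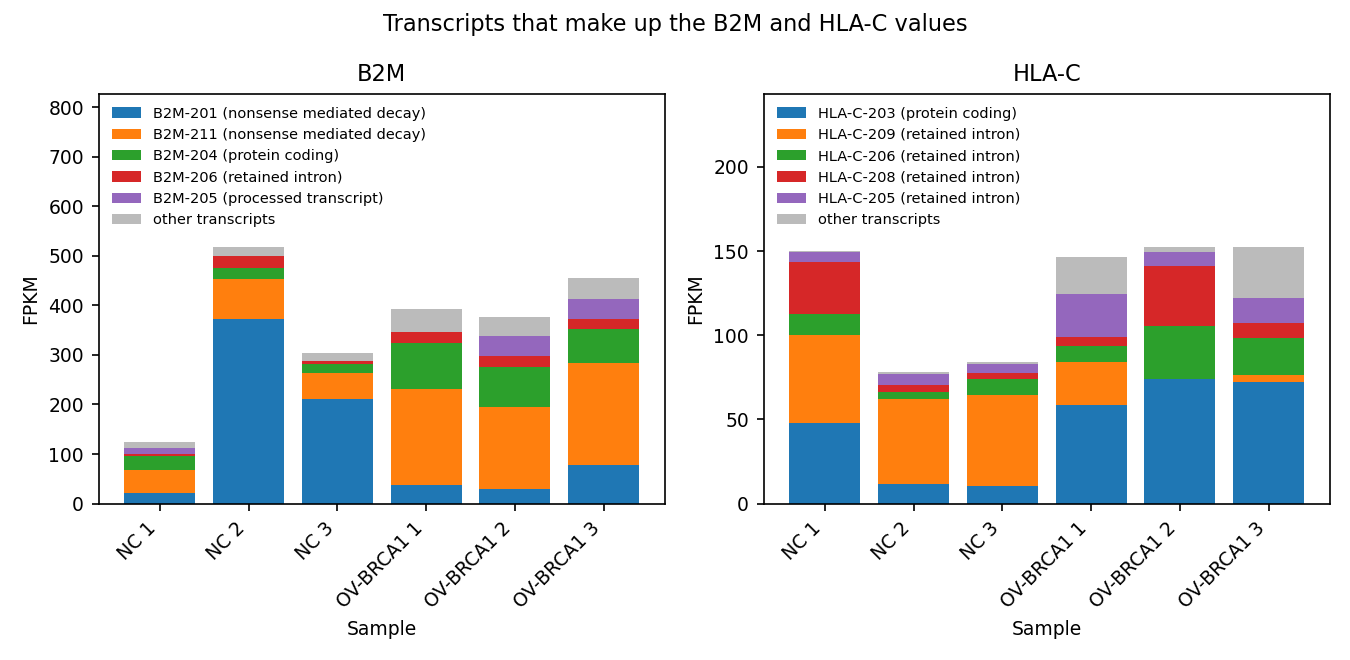
FPKM (y axis) of the transcripts that make up B2M (left) and HLA-C (right) in each of the 6 samples, as stacked bars from 0 in which each colour is a transcript and grey the sum of the others. The B2M bars of NC replicates 2 and 3 are mostly B2M-201 (372 and 212 FPKM), and HLA-C-209 is at 50.4 to 53.6 FPKM in NC but at most 25.4 FPKM in OV-BRCA1.

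Summing protein-coding transcripts only, B2M was 115, 100.5 and 87.6 FPKM in the OV-BRCA1 samples and 33.0, 34.4 and 26.2 FPKM in the NC samples. This sum is a minor part of the B2M totals of 393, 377 and 455 FPKM against 124, 517 and 303 FPKM. The part was smallest in NC replicates 2 and 3. On this sum the groups were separate, at 101.1 ± 13.7 and 31.2 ± 4.4 FPKM (SD, n = 3 each). The difference was 1.67 ± 0.14 (SE) and passed the test (limma adjusted p = 8.56e-04). HLA-B and HLA-E differed by 2.25 and 1.45 on the protein-coding sums, so 5 of the 6 genes rose there, and HLA-G did not reach the filter. On that fit 17.7% of 11862 genes rose. With B2M-201 and HLA-C-209 left out and all other transcripts kept, B2M differed by 1.69 and HLA-C by 1.66. Both transcripts were picked after their values were seen and had lower means in OV-BRCA1, so leaving them out had to raise these differences, which are given as a description only. The other direction was seen when a gene was represented by its most abundant transcript alone, which for B2M is B2M-201, with a difference of -1.43 (limma adjusted p = 0.519).

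**Figure D3:**
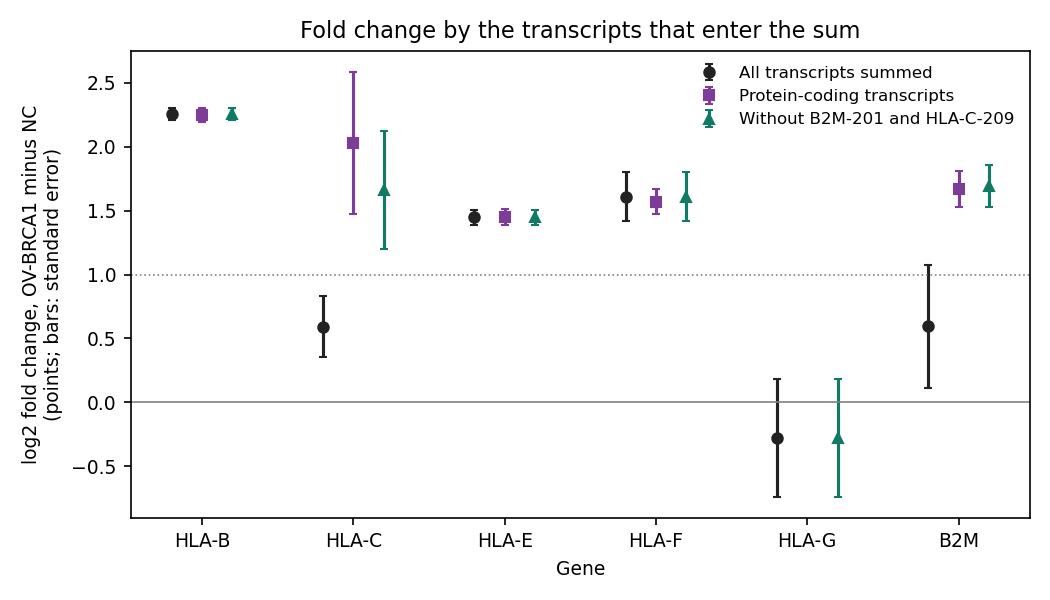
Log2 difference of OV-BRCA1 over NC (y axis, log2(FPKM + 1) scale) for each of the 6 genes (x axis) over all transcripts, protein-coding transcripts and all but B2M-201 and HLA-C-209, with bars of 1 SE, a solid line at 0 and a dotted line at 1. HLA-B stays at 2.25 to 2.26 and HLA-E at 1.45, while B2M runs from 0.60 over all transcripts to 1.67 over protein-coding transcripts, and HLA-C from 0.59 to 2.03.

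The summed FPKM of the 5 heavy chain genes was 1490, 1391 and 1399 in the OV-BRCA1 samples and 447, 361 and 374 in the NC samples. Of this sum, HLA-B took 77.9%, 76.3% and 78.0% in the OV-BRCA1 samples and 52.9%, 62.7% and 61.0% in the NC samples. The HLA-B share was higher in every OV-BRCA1 sample, by 18.5 percentage points between the means of 77.4% ± 0.985 and 58.9% ± 5.21 (SD, n = 3 each). HLA-C took 9.84%, 10.9% and 10.9% against 33.5%, 21.6% and 22.4%, lower in every OV-BRCA1 sample. HLA-E took 7.06% to 7.62% against 8.26% to 10.6%, also without overlap. HLA-F took 3.44% to 5.69% against 5.17% to 5.59% and overlapped. HLA-G took at most 0.0389% in the OV-BRCA1 samples, and 0.0545%, 0.0723% and 0.830% in the NC samples.

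With 3 samples against 3 the smallest p of an exact two-sided permutation test is 0.1, so no share could pass 0.05. The exact permutation p was 0.1 for HLA-B, HLA-C, HLA-E and HLA-G and 0.5 for HLA-F, or 0.15 and 0.5 after Benjamini-Hochberg adjustment over the 5 shares and the ratio to B2M. On protein-coding sums the gap in the HLA-B share narrowed to 8.70 points and that in the HLA-C share to -1.64 points, with an exact permutation p of 1 for HLA-C. The HLA-B share was 78.5%, 78.1% and 74.9% against 61.6%, 73.4% and 70.5%, lowest in NC replicate 1. The HLA-C share was 7.48%, 8.32% and 10.1% against 19.7%, 5.74% and 5.38%. NC replicate 1 lay above every OV-BRCA1 sample and the other NC samples below, so the negative HLA-C gap rests on NC replicate 1. On the same sums the gap in the HLA-E share widened to -5.67 points. The HLA-F share became 3.21%, 3.20% and 3.79% against 4.14%, 4.26% and 5.26%, lower in every OV-BRCA1 sample, with a gap of -1.16 points (exact permutation p = 0.1). The ratio of summed heavy chains to B2M was 3.79, 3.69 and 3.08 in the OV-BRCA1 samples and 3.61, 0.698 and 1.23 in the NC samples, with 1 NC sample inside the OV-BRCA1 range (exact permutation p = 0.2, adjusted 0.24). On protein-coding sums it was 8.51, 9.08 and 10.3 against 7.37, 6.08 and 7.99, higher in every OV-BRCA1 sample (exact permutation p = 0.1).

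**Figure D4:**
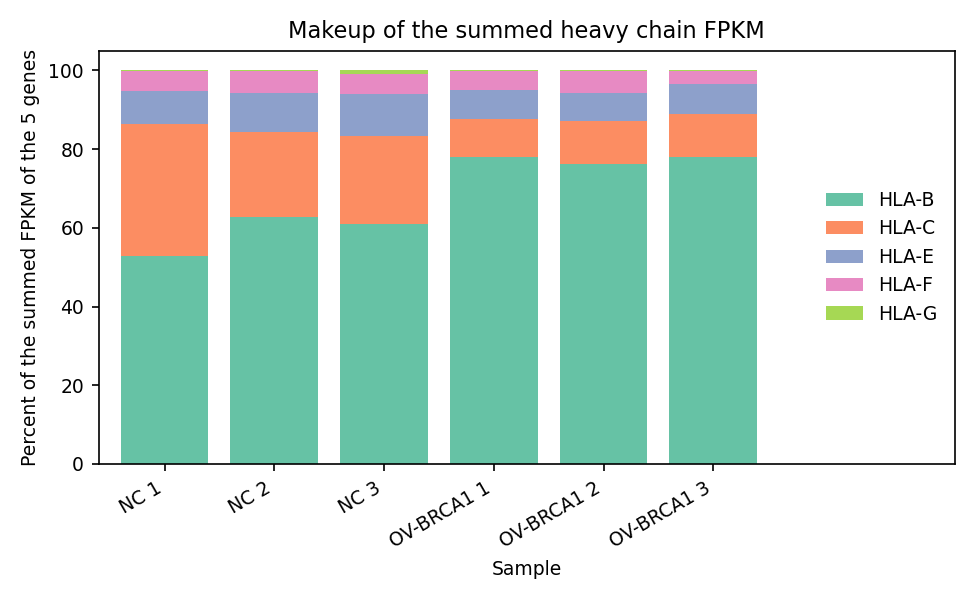
Percent of the summed FPKM of 5 heavy chain genes taken by each gene, as stacked bars from 0 to 100 for each of the 6 samples. HLA-B fills 76.3% to 78.0% in OV-BRCA1 and 52.9% to 62.7% in NC, and HLA-C 9.84% to 10.9% against 21.6% to 33.5%.

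The heavy chain genes are alike in sequence, which bears on how fragments can be divided among them. Over the coding sequence, HLA-B and HLA-C share 90.4% of aligned bases and HLA-B and HLA-E 86.1%, while the lowest identity among the 5 was 65.8%, between HLA-F and HLA-G. Over exact windows of 100 bases, HLA-C-203 shares 0.275% with other genes and B2M-204 shares none. HLA-B and HLA-C also overlap by 35 exon bases on the same strand. These values come from the reference, and the alleles of SiHa were not analysed here.

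Other genes of the pathway were read from lists. Of 21 genes of peptide supply and loading, 16 rose, 1 fell and 4 did not pass the test, with a median difference of 0.68 beside -0.04 over all genes. The share of all genes tested that rose was 16.4%, and 18.9% fell. TAP1, a subunit of the peptide transporter, was 78.4, 74.2 and 76.5 FPKM in the OV-BRCA1 samples and 16.0, 15.5 and 16.6 FPKM in the NC samples, a difference of 2.18 (limma adjusted p = 3.88e-06). The immunoproteasome subunits PSMB9 and PSMB8 rose by 1.93 and 1.31, and the endoplasmic reticulum chaperones HSPA5, CANX and CALR by 1.37, 0.83 and 0.82. PSMB6, the constitutive proteasome subunit that PSMB9 replaces, was the 1 gene that fell, by 0.33 on the log2 scale, from 72.2 ± 0.571 to 57.1 ± 1.16 FPKM (SD, n = 3 each), and was named after its value was seen. The other constitutive catalytic subunits, named likewise, did not move with it: PSMB7 rose by 0.25 (limma adjusted p = 0.00962), and PSMB5 was 53.5 ± 17.0 against 51.0 ± 5.19 FPKM (SD, n = 3 each) and did not pass. GANAB, a glucosidase that trims glycans on new chains, was the most abundant gene that did not pass, at 135.5 ± 24.2 against 147.3 ± 7.97 FPKM.

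Of 22 genes that control transcription of class I genes, 7 rose, 1 fell and 14 did not pass, with a median difference of 0.08. Across all genes tested, 16.4% rose and 18.9% fell. The interferon pathway factors STAT2 and IRF9 rose by 0.93 and 0.72, IRF1 and IRF2 by 1.00 and 0.47, and the NF-kB members RELB and NFKB1 by 1.30 and 0.42. RELA, the partner subunit of NFKB1, was 33.5, 15.8 and 19.9 FPKM in the OV-BRCA1 samples and 37.6, 39.6 and 37.4 FPKM in the NC samples. It was lower in every OV-BRCA1 sample, by a difference of -0.77 that missed the threshold (limma adjusted p = 0.0544), and was named after its value was seen. IRF1 was uneven within its group, at 17.4, 17.7 and 27.1 FPKM against 8.08, 11.5 and 9.50 FPKM. NLRC5, named after its value was seen, was 33.7 ± 2.86 FPKM against 19.9 ± 4.38 FPKM (SD, n = 3 each), a difference of 0.75 (limma adjusted p = 0.0152). USF2, an E-box factor likewise named afterwards, fell by 0.40. EZH2, a histone methyltransferase that can silence class I genes, was 35.5 ± 1.67 against 38.6 ± 2.73 FPKM and did not pass.

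Of 18 class I-like genes and ligands of the receptor NKG2D, 12 could be tested, 6 rose, none fell and 6 did not pass, with a median difference of 0.59. All genes tested gave shares of 16.4% that rose and 18.9% that fell. PROCR, the endothelial protein C receptor, rose by 1.62, from 9.17 ± 0.197 to 30.3 ± 1.58 FPKM (SD, n = 3 each). The NKG2D ligands RAET1L, ULBP2, MICA, MICB and RAET1E rose by 1.47, 0.85, 0.62, 0.59 and 0.59. RAET1G, another ligand, was 7.99 ± 0.639 against 8.71 ± 0.50 FPKM and did not pass.

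Of 14 MHC class II genes and their partners, 9 could be tested, of which 8 rose and 1 did not pass. CD74, CTSS and HLA-DRB5 are among the 8, reached the filter through the OV-BRCA1 group alone and so had to differ. The shares of all genes tested, for this list and the next, were 16.4% risen and 18.9% fallen. Class II levels were low: HLA-DRA was 3.70 ± 0.383 against 0.606 ± 0.150 FPKM and HLA-DRB1 6.07 ± 0.129 against 0.819 ± 0.302 FPKM (SD, n = 3 each), differences of 1.55 and 1.97. IFI30, a lysosomal reductase that unfolds antigens, was the abundant member, at 337 ± 15.6 against 192.3 ± 3.85 FPKM. HLA-DQB1 was the gene that did not pass, at 0.678 ± 0.103 against 0.496 ± 0.198 FPKM (SD, n = 3 each). Of 22 class I pseudogenes and RNAs of the region, 20 were found and 8 tested, of which 5 rose, 1 fell and 2 did not pass. HCP5, a transcript near HLA-B, was 12.9 ± 0.464 against 2.08 ± 0.102 FPKM, a difference of 2.18. The pseudogene HLA-H rose by 0.90, and as a near copy of the heavy chain genes its fragments may be divided with theirs. The pseudogene HLA-V and the RNAs HCG4 and HCG18 rose by 0.96, 0.87 and 0.49, and HCG27 fell by 0.56.

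**Figure D5:**
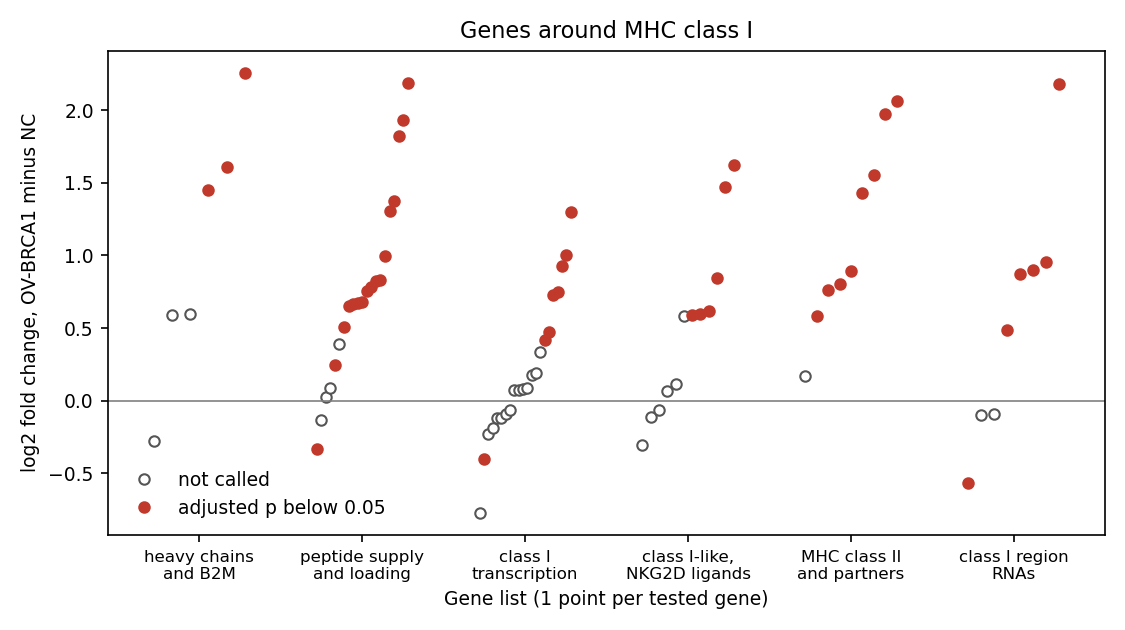
Log2 difference of OV-BRCA1 over NC (log2(FPKM + 1) scale) for each tested gene of the 6 class I genes and 5 lists, with filled points for genes with an adjusted p under 0.05 and open points for the others. Peptide supply and loading has 16 of 21 genes that rose and a median of 0.68. Transcription of class I genes has 7 of 22 that rose and a median of 0.08. Over all genes tested, 16.4% rose.

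The genes whose pattern over the 6 samples was nearest to that of HLA-B, by Euclidean distance of centred log2(FPKM + 1), were LINC00941 at 0.127, LIF at 0.147 and HIST1H4H at 0.155. For B2M the nearest were REV3L at 0.579, AC104692.1 at 0.617 and GABARAPL1 at 0.662, all farther than those of HLA-B.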

How the data were processed

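Poly(A) RNA of 3 OV-BRCA1 and 3 NC SiHa cultures was sequenced. The authors deposited FPKM per transcript, for which the submitters' processing notes name FastQC, HISAT2 and hg38. The annotation, the quantification tool and its strand use are not given in the sources used here. The study tested counts, which were not used here. Of 199167 transcripts, 198868 matched GENCODE 29 on GRCh38, and B2M lacked 1 of 15 transcripts. FPKM were summed per gene and fitted as log2(FPKM + 1) with limma 3.58.1 (trend, R 4.3.3). Shares and the ratio to B2M were compared with exact permutation tests. Low values did not give whole reads: 31.1% to 36.7% lay within 0.1 of a whole multiple, so depths and fragments are estimates and carry no counting interval. The 6 genes and the gene lists were chosen with earlier results of these data known. In each list the 6 genes with the lowest adjusted p among those called were named, and the most abundant gene not called. Alternatives were another pseudocount, 2 other filters, 2 other scalings, limma without trend, other sums of transcripts, each sample left out, and a replicate block.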

Additional observations from a re-analysis of the deposited data

How the results depend on the processing

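Of the recomputed values, 172 were classed as same, 11 as moved, 2 as reversed, 5 as stronger and 1 as weaker. Same meant an unchanged direction and side of the threshold for a log2 difference, and a similar size for a count. For a share gap or the ratio to B2M it meant the same direction and a change below the larger group SD. The ratio to B2M thus counts as same on protein-coding sums, where its log2 difference went from 1.26 to 0.38. Summed over protein-coding transcripts, HLA-C passed the test at 2.03 and B2M at 1.67, with 5 genes called and 5 past the screening criterion. Without B2M-201 and HLA-C-209, HLA-C was 1.66, B2M 1.69 and both counts 5; these transcripts were chosen after seeing the data and ran against the rise, so this setting had to raise the values and is no independent check. Under these settings, in that order, the gap in the HLA-B share moved to 8.70 and 9.90 percentage points, that of HLA-C to -1.64 and -4.40, and that of HLA-E to -5.67 and -3.76. On protein-coding sums the negative HLA-C gap rested on NC replicate 1, at 19.7% against 5.74% and 5.38% in the other NC samples. The HLA-B share was lowest in that sample, at 61.6% against 73.4% and 70.5%. With the most abundant transcript per gene, B2M turned to -1.43 (adjusted p = 0.519), HLA-F lost its call at 1.62 (adjusted p = 0.462), and list genes called fell from 45 to 26. HLA-G had no value there, on protein-coding sums or with FPKM of at least 1 in all samples.

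Leaving out each sample gave log2 differences of 2.22 to 2.28 for HLA-B, 0.42 to 0.89 for HLA-C (called without NC replicate 1), 1.42 to 1.49 for HLA-E, 1.48 to 1.83 for HLA-F, -0.57 to -0.25 for HLA-G and 0.04 to 1.07 for B2M. HLA-G did not reach the filter without OV-BRCA1 replicate 1, OV-BRCA1 replicate 3 or NC replicate 3. Genes called were 3 to 4, those past the criterion 3 to 3, and list genes called 40 to 44. Share gaps were 15.6 to 20.4 points for HLA-B, -17.4 to -11.5 for HLA-C, -2.99 to -1.84 for HLA-E, -1.11 to 0.0144 for HLA-F (turned without OV-BRCA1 replicate 3) and -0.413 to -0.0259 for HLA-G. The log2 ratio of heavy chains to B2M differed by 1.26 in the main comparison, by 0.73 to 1.92 with a sample left out, by 0.38 on protein-coding sums and by 0.36 without B2M-201 and HLA-C-209.

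With the replicate number as a block, the differences were the same (2.26 for HLA-B, 0.60 for B2M at an adjusted p of 0.333), 3 genes were called, and calls over all genes went from 5764 to 4595. Deviations of same-numbered samples correlated at -0.0244, 0.0250 and 0.0136, so no shared deviation was seen over all genes. Whether same-numbered cultures were handled together is not given in the sources used here. Over all genes, the criterion took 651 genes, or 1280 with a pseudocount of 0.1, and calls were 1585 of 15614 with the most abundant transcript and 3694 of 11862 on protein-coding sums. The cause of the changes between sums of transcripts was not tested.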
